A study of Mus musculus with 40 samples.

Results

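The cathepsins are the main proteases of the lysosome, and 10 of their genes were described across the mouse cortex: *Ctsa*, *Ctsb*, *Ctsc*, *Ctsd*, *Ctsf*, *Ctsh*, *Ctsk*, *Ctsl*, *Ctss* and *Ctsz*. They were chosen by gene name among the 43346 genes of the count table, and all 10 were among the 21253 genes with enough counts to be tested. RNA of the cortex was sequenced from 40 mice to compare animals with and without the H157Y substitution of the microglial receptor TREM2, in the presence and absence of amyloid. WT mice and mice homozygous for the *Trem2* H157Y knock-in allele (Hom) were compared within an amyloid cohort, aged 8.5 months, and within a non-amyloid cohort, aged 6 months. Each of the 4 groups (amyloid WT, amyloid Hom, non-amyloid WT, non-amyloid Hom) held 10 mice, 5 females and 5 males. All amyloid mice, WT and Hom, were hemizygous for 5xFAD, an amyloid transgene expressed in neurons from the Thy1 promoter. The knock-in allele was made with CRISPR/Cas9 in zygotes of a B6/CBA hybrid background and came from a single founder line, and WT mice were littermates. Cohort and age cannot be told apart in these data. Below, a rise or change with amyloid means a difference of the amyloid from the non-amyloid cohort, which includes their difference in age.

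Cathepsins are made as inactive precursors, sorted to lysosomes and activated there at acid pH, where they degrade proteins taken up from outside the cell or delivered by autophagy. They fall into aspartic, cysteine and serine proteases, and they differ in whether they cut inside a chain (endopeptidases) or trim its ends (exopeptidases). In the brain several of them are abundant in microglia, the resident phagocytes, while neurons and astrocytes express others.

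Total counts per library were 62272158 to 105903846 (median 78134526) in amyloid WT mice and 41646271 to 95364171 (median 70298502) in amyloid Hom mice. They were 63206723 to 96535733 in non-amyloid WT mice and 62292528 to 101025084 in non-amyloid Hom mice. Levels are given as CPM, the count scaled to the library size after normalization by trimmed means (TMM). The lowest member, *Ctsk*, had 114 to 446 counts in the amyloid mice, so that its relative counting error is the largest of the 10. The tissue label was checked on cortical markers. The glutamatergic marker *Slc17a7* was at 499.5 to 1249 CPM, and the upper-layer marker *Cux2* and the deep-layer marker *Tbr1* had mean levels of 51.1 to 120.2 CPM in every group. The cerebellar marker *Gabra6* had medians of 0.0177 to 0.0627 CPM, and its highest value was 4.24 CPM in a non-amyloid WT mouse.

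Amyloid Hom replicate 19, a female, stood apart from the other 39 libraries. It had the fewest counts, and 0.617% of them lay on 537 genes that share at least 50% of their exonic bases with a more abundant gene of the opposite strand, against 0.0144% to 0.0191% in the others. Its *Ctsb* level of 679 CPM was below the 744 to 988 CPM of the other 9 amyloid Hom mice, and its *Ctsk* level of 2.68 CPM was below their 3.37 to 4.65 CPM. For the other 8 members it ranked between 4 and 9 from the highest of the 10. The numbers of members called by edgeR are given with and without it, and the counts by DESeq2, limma-voom, filterByExpr and the fit of all libraries include it. For amyloid Hom against WT mice the values of named genes are given without it where an unadjusted p under 0.05 was lost. Marker levels and list counts of the other comparisons include it. By GENCODE vM21, exons of *Ctsl*, *Ctsa* and *Ctsb* overlap genes of the opposite strand over 26.8%, 17.4% and 12.8% of their bases, *Ctsz* over 0.694%, and the other members over 0%. The counts were made on other gene models, shorter for *Ctsl* (1971 against 6489 exonic bases) and *Ctsb* (4739 against 6051), so the overlap of the counted exons may differ. The strand setting of the counting was not stated, so the counts of these 4 genes are less certain. The opposite genes had medians of up to 144 CPM at *Ctsb*, 36.2 CPM at *Ctsz* and 30.6 CPM at *Ctsa*, and the gene opposite *Ctsl* has no entry in the count table.

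*Trem2*, the edited gene, was at 30.2, 55.5 and 111 CPM (lowest, median and highest mouse, n = 10) in amyloid WT mice and at 17.3, 34.3 and 49.1 CPM in amyloid Hom mice. It was at 7.69, 10.4 and 15.2 CPM in non-amyloid WT mice and at 7.52, 10.3 and 12.7 CPM in non-amyloid Hom mice. The amyloid groups overlapped but lay above every non-amyloid mouse, and the non-amyloid groups covered nearly the same range. Its log2 fold change in amyloid Hom against amyloid WT mice was -0.87 with an adjusted p of 0.0763 (edgeR), it was -0.90 (adjusted p = 0.0987) without replicate 19, and with sex as a covariate it was -0.86 with an adjusted p of 0.00923.

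Per kb of gene length, the order of the cathepsins differed between the cohorts. Lengths were those of the count table. By GENCODE vM21 *Ctsl* has 6489 exonic bases (against 1971), *Ctsf* 5041 (against 1975) and *Ctsb* 6051 (against 4739). The same counts would lie lower per kb with those lengths, but longer models could also gain counts. The ranks of these genes may therefore depend on the gene models, which was not tested. In non-amyloid WT mice *Ctsb* (156.8 ± 8.19 CPM per kb, SD, n = 10) and *Ctsd* (149.9 ± 16.1) were highest and their ranges overlapped. *Ctsl* (58.6 ± 4.80) and *Ctss* (56.6 ± 5.45) followed, also with overlapping ranges, then *Ctsf*, *Ctsa* and *Ctsz* at 18.6 to 24.8 CPM per kb, and *Ctsk*, *Ctsh* and *Ctsc* at 1.75 to 2.90 CPM per kb. In amyloid WT mice *Ctsd* was first at 560.0 ± 175 CPM per kb and was above *Ctss* (221 ± 71.4) in 10 of 10 mice. *Ctss* and *Ctsb* (213 ± 29.1) could not be ranked, since *Ctss* was the higher of them in 4 of 10 mice. *Ctsz* had passed *Ctsf* and *Ctsa*, and *Ctsk* was last at 2.52 ± 0.311 CPM per kb. In amyloid Hom mice *Ctsd* was also first, at 328.5 ± 80.3 CPM per kb and with no overlap with *Ctsb*. Summed over the 10 genes, the level was 3241 ± 754 CPM (SD, n = 10) in amyloid WT, 2254 ± 370 in amyloid Hom, 1503 ± 86.3 in non-amyloid WT and 1466 ± 81.3 in non-amyloid Hom mice.

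**Figure D1:**
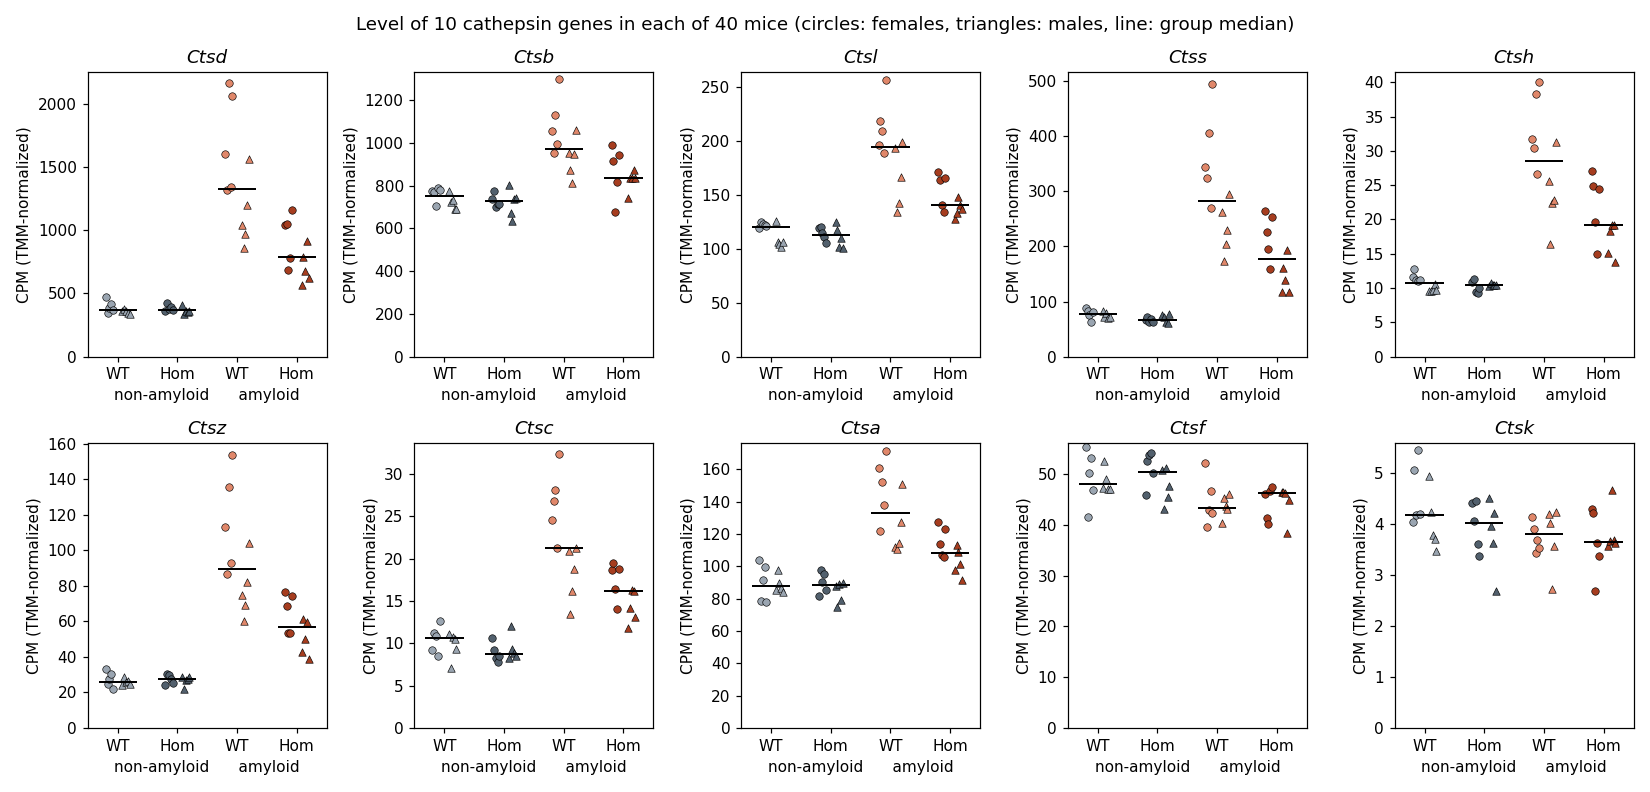
Level of each of the 10 cathepsin genes in each of the 40 mice, on a linear axis of TMM-normalized CPM that starts at 0. Circles are females, triangles are males and lines are group medians (n = 10). The 8 genes from *Ctsd* to *Ctsa* are higher in every amyloid WT mouse than in every non-amyloid WT mouse, while *Ctsf* and *Ctsk* overlap between the groups. The share of all genes tested that separate in this way is not given.

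The endopeptidases were described first. *Ctsd* (ENSMUSG00000007891, mm10 chromosome 7 from 142371148 to 142388038) encodes cathepsin D, the main aspartic protease of lysosomes. It was at 859, 1329 and 2159.9 CPM (lowest, median and highest, n = 10) in amyloid WT mice and at 569, 784 and 1161 CPM in amyloid Hom mice. It was at 333.5, 367 and 473 CPM in non-amyloid WT mice and at 336, 366 and 426 CPM in non-amyloid Hom mice. Every amyloid mouse was above every non-amyloid mouse, and 6 of 10 amyloid Hom mice were below every amyloid WT mouse. In WT mice *Ctsd* rose with amyloid by a log2 fold change of 1.90 (SE 0.140, adjusted p = 1.3e-09, edgeR) and in Hom mice by 1.13 (SE 0.106, adjusted p = 1.8e-07). Between amyloid Hom and WT mice the log2 fold change was -0.77 (SE 0.165) with an adjusted p of 0.0554, just short of the threshold of 0.05.

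*Ctsb* (ENSMUSG00000021939, chromosome 14 from 63122462 to 63145919) encodes cathepsin B, a cysteine protease that cuts inside chains and also removes dipeptides from their C-terminal end. Its levels were 811, 974 and 1299 CPM in amyloid WT, 679, 837 and 988 CPM in amyloid Hom, 689, 751 and 788 CPM in non-amyloid WT and 637, 727 and 804 CPM in non-amyloid Hom mice. The amyloid WT mice were all above the non-amyloid WT mice, whereas among Hom mice the cohorts overlapped and 8 of 10 amyloid mice were above all non-amyloid ones. *Ctsb* rose in WT mice with amyloid (log2 fold change 0.44, SE 0.0652, adjusted p = 3.98e-05, edgeR). In Hom mice its value of 0.21 (SE 0.0568, adjusted p = 0.027) was under the fold threshold of 0.25, and it was 0.24 without replicate 19. For amyloid Hom against WT mice it was -0.25 (SE 0.0760, adjusted p = 0.147).

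*Ctsl* (ENSMUSG00000021477, chromosome 13 from 64363214 to 64370306) encodes cathepsin L, a broadly expressed cysteine endopeptidase. It was at 134, 195 and 256 CPM in amyloid WT and at 127, 141 and 171 CPM in amyloid Hom mice, against 102, 120.04 and 126 CPM in non-amyloid WT and 101, 113 and 125 CPM in non-amyloid Hom mice. The amyloid mice of each genotype lay above all non-amyloid mice, and 7 of 10 amyloid WT mice were above every amyloid Hom mouse. *Ctsl* rose with amyloid by a log2 fold change of 0.72 (SE 0.0897, adjusted p = 3.65e-06, edgeR) in WT and by 0.36 (SE 0.0555, adjusted p = 0.000146) in Hom mice. For amyloid Hom against WT mice its log2 fold change was -0.38 (SE 0.0934, adjusted p = 0.0787).

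*Ctss* (ENSMUSG00000038642, chromosome 3 from 95526786 to 95556403) encodes cathepsin S, a cysteine endopeptidase of antigen-presenting cells that trims the invariant chain of MHC class II and keeps activity near neutral pH. It was at 173, 282 and 495 CPM in amyloid WT and at 117, 177 and 264 CPM in amyloid Hom mice. It was at 63.3, 76.9 and 88.3 CPM in non-amyloid WT and at 61.0, 67.0 and 77.5 CPM in non-amyloid Hom mice. No amyloid mouse came down to the non-amyloid range, and 5 of 10 amyloid Hom mice were below every amyloid WT mouse. *Ctss* had the largest log2 fold change of the 10 genes with amyloid, 1.97 (SE 0.143, adjusted p = 1.1e-09, edgeR) in WT and 1.404 (SE 0.129, adjusted p = 1.19e-07) in Hom mice. Its value in amyloid Hom against WT mice was -0.72 (SE 0.180, adjusted p = 0.0821).

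The exopeptidases are *Ctsh*, *Ctsz*, *Ctsc* and *Ctsa*. *Ctsh* (ENSMUSG00000032359, chromosome 9 from 90054152 to 90076089) encodes cathepsin H, a cysteine aminopeptidase. It was at 16.4, 28.5 and 40.0 CPM in amyloid WT and at 13.8, 19.2 and 27.03 CPM in amyloid Hom mice, against 9.62, 10.8 and 12.8 CPM in non-amyloid WT and 9.33, 10.4 and 11.3 CPM in non-amyloid Hom mice. The cohorts did not overlap, while the amyloid groups did, and for 3 of 10 mice the Hom level was under the whole WT range. The log2 fold change with amyloid was 1.42 (SE 0.122, adjusted p = 1.35e-08, edgeR) in WT and 0.91 (SE 0.102, adjusted p = 2.12e-06) in Hom mice, and that of amyloid Hom against WT mice was -0.54 (SE 0.147, adjusted p = 0.104).

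*Ctsz* (ENSMUSG00000016256, chromosome 2 from 174427493 to 174439039) encodes cathepsin Z, also called cathepsin X, a cysteine carboxypeptidase. It was at 60.1, 89.8 and 154 CPM in amyloid WT and at 38.99, 56.6 and 76.3 CPM in amyloid Hom mice. It was at 22.1, 25.96 and 33.4 CPM in non-amyloid WT and at 22.2, 27.7 and 30.6 CPM in non-amyloid Hom mice. As for *Ctsd*, 6 of 10 amyloid Hom mice were below every amyloid WT mouse and all amyloid mice were above all non-amyloid mice. The log2 fold change with amyloid was 1.86 (SE 0.139, adjusted p = 1.57e-09, edgeR) in WT and 1.08 (SE 0.103, adjusted p = 2.25e-07) in Hom mice. In amyloid Hom against WT mice *Ctsz* had the lowest p of the 10 genes, with a log2 fold change of -0.75 (SE 0.156, unadjusted p = 8.56e-05, adjusted p = 0.0554).

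*Ctsc* (ENSMUSG00000030560, chromosome 7 from 88278085 to 88310888) encodes cathepsin C, a dipeptidyl peptidase that activates serine proteases of immune cell granules. Its levels were 13.4, 21.3 and 32.4 CPM in amyloid WT, 11.8, 16.2 and 19.5 CPM in amyloid Hom, 7.05, 10.6 and 12.7 CPM in non-amyloid WT and 7.73, 8.68 and 12.03 CPM in non-amyloid Hom mice. In Hom mice 9 of 10 amyloid mice were above all non-amyloid ones. The log2 fold change with amyloid was 1.15 (SE 0.132, adjusted p = 1.13e-06, edgeR) in WT and 0.78 (SE 0.0925, adjusted p = 4.84e-06) in Hom mice, and that of amyloid Hom against WT mice was -0.49 (SE 0.131, adjusted p = 0.0933). *Ctsa* (ENSMUSG00000017760, chromosome 2 from 164832873 to 164841032) encodes cathepsin A, a serine carboxypeptidase that also protects β-galactosidase and neuraminidase from degradation. It was at 111, 133 and 171 CPM in amyloid WT, 91.3, 108 and 127 CPM in amyloid Hom, 77.7, 88.0 and 104 CPM in non-amyloid WT and 74.5, 88.2 and 97.5 CPM in non-amyloid Hom mice. The amyloid WT mice were above all non-amyloid WT mice, and 6 of 10 amyloid Hom mice were below all amyloid WT mice. Its log2 fold changes were 0.61 (SE 0.0817, adjusted p = 1.12e-05, edgeR) with amyloid in WT, 0.31 (SE 0.0585, adjusted p = 0.0015) in Hom, and -0.32 (SE 0.0821, adjusted p = 0.0846) in amyloid Hom against WT mice.

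The remaining members, *Ctsf* and *Ctsk*, overlapped between all 4 groups. *Ctsf* (ENSMUSG00000083282, chromosome 19 from 4855129 to 4860912) encodes cathepsin F, a cysteine protease with a cystatin-like stretch in its propeptide. It was at 39.6, 43.4 and 52.2 CPM in amyloid WT, 38.5, 46.2 and 47.4 CPM in amyloid Hom, 41.6, 48.2 and 55.3 CPM in non-amyloid WT and 43.1, 50.5 and 54.2 CPM in non-amyloid Hom mice. Its values were below 0 with amyloid, at a log2 fold change of -0.15 (adjusted p = 0.116, edgeR) in WT and -0.17 (adjusted p = 0.0487, under the fold threshold) in Hom mice. Without replicate 19 the latter was -0.15 with an adjusted p of 0.1. *Ctsk* (ENSMUSG00000028111, chromosome 3 from 95499286 to 95509362), next to *Ctss* on the chromosome, encodes cathepsin K, the collagen-degrading cysteine protease of osteoclasts. It was at 2.72, 3.79 and 4.23 CPM in amyloid WT, 2.68, 3.64 and 4.65 CPM in amyloid Hom, 3.47, 4.18 and 5.44 CPM in non-amyloid WT and 2.68, 4.01 and 4.51 CPM in non-amyloid Hom mice. Its log2 fold change with amyloid was -0.20 (adjusted p = 0.232, edgeR) in WT and -0.072 (adjusted p = 0.702) in Hom mice. In amyloid Hom against WT mice *Ctsf* was at 0.0072 (95% interval -0.096 to 0.11) and *Ctsk* at -0.0018 (95% interval -0.19 to 0.19).

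By comparison, 8 of the 10 members rose with amyloid in WT mice by the edgeR test, which called 7.31% of all genes tested and 6.21% as higher. In Hom mice 7 of 10 rose, all of the 8 except *Ctsb*, where the test called 5.83% of all genes and 4.58% as higher. The mean level in amyloid mice was 1.36 times (*Ctsb*) to 3.90 times (*Ctss*) that in non-amyloid mice for these 8 genes in WT mice, and 1.17 times to 2.68 times in Hom mice. Their median log2 fold change over all 10 members was 0.93 in WT and 0.57 in Hom mice, beside 0.0024 and 0.012 over all genes tested. These counts were the same by DESeq2 and limma-voom, and the count for Hom mice was the same without replicate 19.

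In amyloid Hom against amyloid WT mice the same 8 genes, *Ctsd*, *Ctsz*, *Ctss*, *Ctsh*, *Ctsc*, *Ctsl*, *Ctsa* and *Ctsb*, had lower means in Hom mice, at 58.7% (*Ctsd*) to 84.0% (*Ctsb*) of the WT mean. By the edgeR test 0 of the 10 members were called, where it called 0.0753% of all genes (16 of 21253), and 8 of 10 were lower at an unadjusted p under 0.05 (also 8 without replicate 19), as were 5.77% of all genes. DESeq2 called 7 members, all but *Ctsb* of the 8, beside 294 of all genes, and limma-voom called 0, beside 25. With sex as a covariate edgeR called 7 members, again all but *Ctsb*, beside 1.18% of all genes, and with that covariate and without replicate 19 it called 6, all but *Ctsa* and *Ctsb*, beside 0.941%. The adjusted p of *Ctsd* with sex as a covariate was 0.00535 and that of *Ctsz* 0.00493, and over all alternatives they ranged from 0.000679 to 0.155 and from 0.000686 to 0.126. The log2 fold changes were nearly the same with the covariate, at -0.75 (SE 0.128) for *Ctsd*, -0.73 (SE 0.122) for *Ctsz* and -0.71 (SE 0.124) for *Ctss*. Without replicate 19 and with no covariate 0 members were called and the values were -0.74, -0.73 and -0.72. A fit of all 40 libraries together called 8 members, beside 612 of all genes, and the filterByExpr filter gave 2, *Ctsd* and *Ctsz*, beside 66. Leaving out a single library gave 7 members (beside 204 of all genes) without amyloid WT replicate 13 and 3 (beside 94) without WT replicate 22. It gave 2 each without WT replicate 9, Hom replicate 3 and Hom replicate 34 (beside 60, 65 and 30), and 0 without any of the other 15, where 6 to 16 of all genes were called. The call for these genes therefore depended on the tool, the covariate and single mice, while all 8 were lower under every one of these settings. This comparison and that of the WT mice of the cohorts share the amyloid WT libraries, so the opposite signs of their values are not independent of each other.

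**Figure D2:**
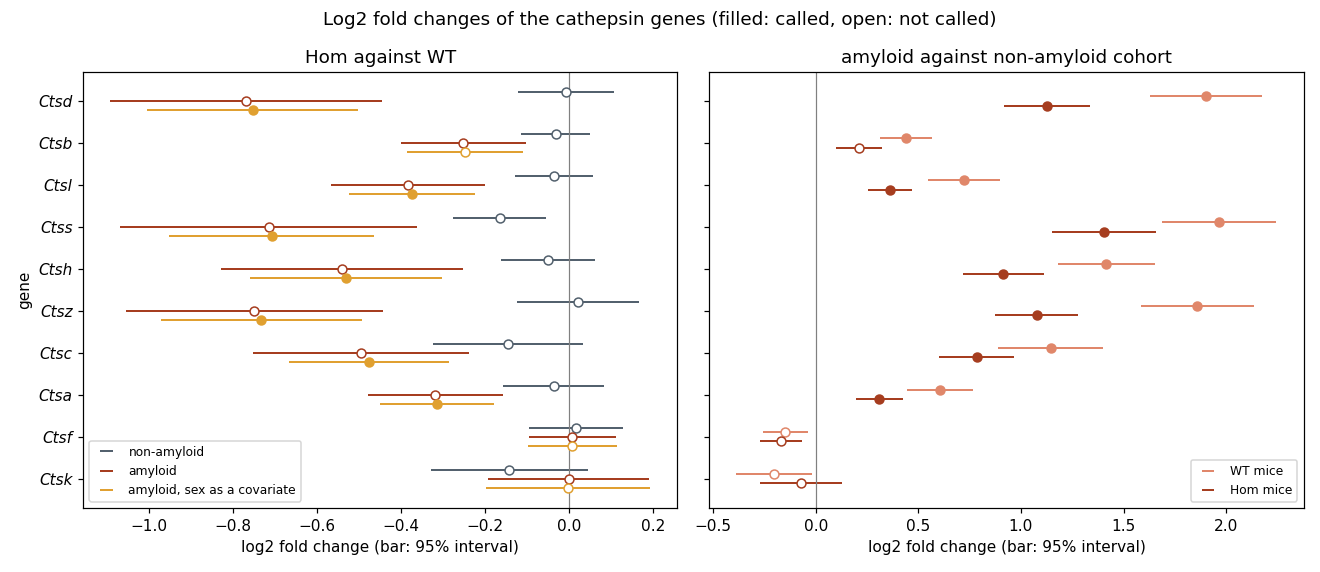
Log2 fold change of each cathepsin gene by edgeR, with its 95% interval as a bar, for Hom against WT mice (left) and for the amyloid against the non-amyloid cohort (right). Filled points passed the adjusted p and fold thresholds and open points did not. With sex as a covariate 7 genes are filled for amyloid Hom against WT mice and 0 without it, at nearly the same values.

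Without amyloid the members differed little between the genotypes. In non-amyloid Hom against WT mice 0 of 10 members were called by edgeR (0.0329% of all genes were), by DESeq2 or by limma-voom, and 1 of 10 had an unadjusted p under 0.05, as did 4.61% of all genes. That gene was *Ctss*, with a log2 fold change of -0.17 (95% interval -0.28 to -0.055, unadjusted p = 0.00738, adjusted p = 0.965). The other 9 had log2 fold changes from -0.15 (*Ctsc*) to 0.021 (*Ctsz*), and for *Ctsd* the 95% interval was -0.12 to 0.11. With sex as a covariate the count was also 0, beside 0.0282% of all genes. The difference between the cohorts was tested itself, as the interaction of genotype and cohort. By edgeR 0 of 10 members were called, where it called 0% of all genes, and 8 of 10 were below 0 at an unadjusted p under 0.05, as were 5.54% of all genes. The lowest adjusted p were those of *Ctsd* and *Ctsz*, both 0.111, with interactions of -0.76 (SE 0.179) and -0.77 (SE 0.177) on the log2 scale. With sex as a covariate edgeR called these 2 genes, beside 0.0565% of all genes, and DESeq2 called the same 2, whereas limma-voom called 0. Without replicate 19 edgeR called 0, with or without the covariate.

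Females and males were compared among the amyloid mice. With genotype in the model, *Ctss* was called as higher in females by edgeR, which called 0.24% of all genes, with a log2 fold change of 0.63 (SE 0.124, adjusted p = 0.0326). Its levels were 269, 344 and 495 CPM (lowest, median and highest, n = 5) in WT females and 173, 229 and 295 CPM in WT males, and 158, 226 and 264 CPM in Hom females and 117, 139.9 and 193 CPM in Hom males. The sexes overlapped within each genotype, and the median of Hom females lay near that of WT males. The same 8 members were higher in females at an unadjusted p under 0.05, as were 6% of all genes, from 0.15 (*Ctsb*) to 0.63 (*Ctss*) on the log2 scale, while *Ctsf* was at 0.014 and *Ctsk* at -0.040. Of the microglial markers 11 of 12 were higher in females at an unadjusted p under 0.05, with 1 called. Of the astrocyte markers *Gfap* was called (0.83, adjusted p = 0.0377, edgeR), a larger value than that of any member, and *S100b* (0.19) and *Aqp4* (0.28) were higher at an unadjusted p under 0.05. The listed markers of plaque-associated microglia were all higher in females, with none called. Among them *Gpnmb* was at 0.86 (unadjusted p = 0.00106, edgeR) and *Cst7* at 0.78 (unadjusted p = 0.00189). Of the neutrophil and monocyte markers 3 of 4 tested were lower in females at an unadjusted p under 0.05, *Ngp* (-2.13), *S100a8* (-1.21) and *S100a9* (-0.99), as was 1 of 6 endothelial markers, with 0 called. The perivascular macrophage marker *Cd163* was higher in females (0.52, unadjusted p = 0.0189, edgeR) and the meningeal marker *Slc6a13* was lower (-0.26, unadjusted p = 0.0498), neither called. DESeq2 called 5 members (beside 251 of all genes), limma-voom 3 (beside 113), and edgeR with no filter on low counts 0 (beside 26), against 51 of all genes in the first test. Without replicate 19 *Ctss* was also called (adjusted p = 0.0263). The interaction of genotype and sex called 0 of 10 members by edgeR, DESeq2 or limma-voom, where edgeR called 0% of all genes, and 0 members had an unadjusted p under 0.05, as did 5.29% of all genes. All 10 values were below 0, where the median over all genes tested was -0.023, and the 95% interval for *Ctsd* was -0.69 to 0.31. Most members varied together among mice, so these signs are not independent of each other. Without replicate 19 the count was also 0.

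Microglial transcripts moved with the cathepsins. Of 12 microglial markers, 12 of 12 rose with amyloid in WT mice and 11 of 12 in Hom mice by edgeR, and in amyloid Hom against WT mice 12 of 12 were lower, 11 at an unadjusted p under 0.05, with 0 called, and 10 called with sex as a covariate, or 6 with it and without replicate 19. Their summed level was 649, 927 and 1449 CPM (lowest, median and highest, n = 10) in amyloid WT, 491, 618.5 and 855 CPM in amyloid Hom, 314, 376 and 457 CPM in non-amyloid WT and 350.4, 368 and 408 CPM in non-amyloid Hom mice. The order of the groups was that of *Ctsd*, and here too the amyloid groups overlapped. *Tyrobp*, the signalling adaptor of TREM2, was the most abundant of the 12 per kb in the amyloid groups, and 0 of the 12 were at 0 in all libraries. The markers with the lowest p in amyloid Hom against WT mice were the complement gene *C1qa* (log2 fold change -0.99), *Tyrobp* (-0.90), *Tmem119* (-0.66) and the receptor *Csf1r* (-0.48). In bulk tissue fewer cells of a type and less RNA per cell cannot be told apart, and the part of microglial transcript level in the values of the cathepsins was not tested.

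Of 10 markers of plaque-associated microglia, 10 rose with amyloid in WT mice and 8 in Hom mice, and in amyloid Hom against WT mice 10 of 10 were lower at an unadjusted p under 0.05. Their summed level was 246, 447 and 829 CPM in amyloid WT, 177, 270.0 and 359.6 CPM in amyloid Hom, 124 to 155 CPM in non-amyloid WT and 109 to 147 CPM in non-amyloid Hom mice. The amyloid groups overlapped, *Cst7* was the most abundant per kb within each of them, and none was at 0 in all libraries. *Gpnmb*, a lysosomal glycoprotein, was the marker called by edgeR (log2 fold change -1.61, adjusted p = 0.033), and *Itgax*, *Spp1* and *Cst7* were at -1.19, -1.32 and -1.305 without passing. With sex as a covariate 9 of 10 were called, and 7 with it and without replicate 19. The part of these markers in the values of the cathepsins was not tested.

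The members were related to the summed microglial level among the mice of each amyloid group. Of 20 relations, 16 had an adjusted permutation p under 0.05 (Benjamini-Hochberg over the 20), 8 in each group, for all members but *Ctsf* and *Ctsk*. For *Ctsz* Pearson's r was 0.973 (permutation p = 1e-05, the smallest that 100000 resamples can give) and Spearman's rho 0.964 (p = 3e-05) in WT mice, and r was 0.978 (p = 2e-05) and rho 1.0 in Hom mice. Leaving out the 2 mice farthest from the median marker level gave 0.942 and 0.976. For *Ctsd* r was 0.966 (p = 3e-05) and rho 0.952 (p = 0.00013) in WT mice, and r was 0.914 (p = 0.00034) and rho 0.927 (p = 0.00033) in Hom mice, with 0.929 and 0.856 without the 2 farthest mice. For *Ctsb* r was 0.902 (permutation p = 0.00023, rho 0.915, p = 0.00063) in WT mice and 0.678 (p = 0.0292, rho 0.806, p = 0.00709) in Hom mice. In Hom mice r was 0.353 without the 2 farthest mice. It was 0.874 without replicate 19, which had a microglial level of 616 CPM near the group median and the lowest *Ctsb*, and which was among the 8 mice kept. The relations of *Ctsl* in both groups (0.717 and 0.536) and of *Ctsc* in Hom mice (0.726) also missed the adjusted threshold without the 2 farthest mice. *Ctsf* (r 0.139 and 0.0633) and *Ctsk* (0.0433 and 0.119) showed no relation that passed. Members and markers were measured in the same libraries and share their normalization. Each group mixes females and males and the permutation did not separate them, so a sex difference shared by members and markers would also give such relations.

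**Figure D3:**
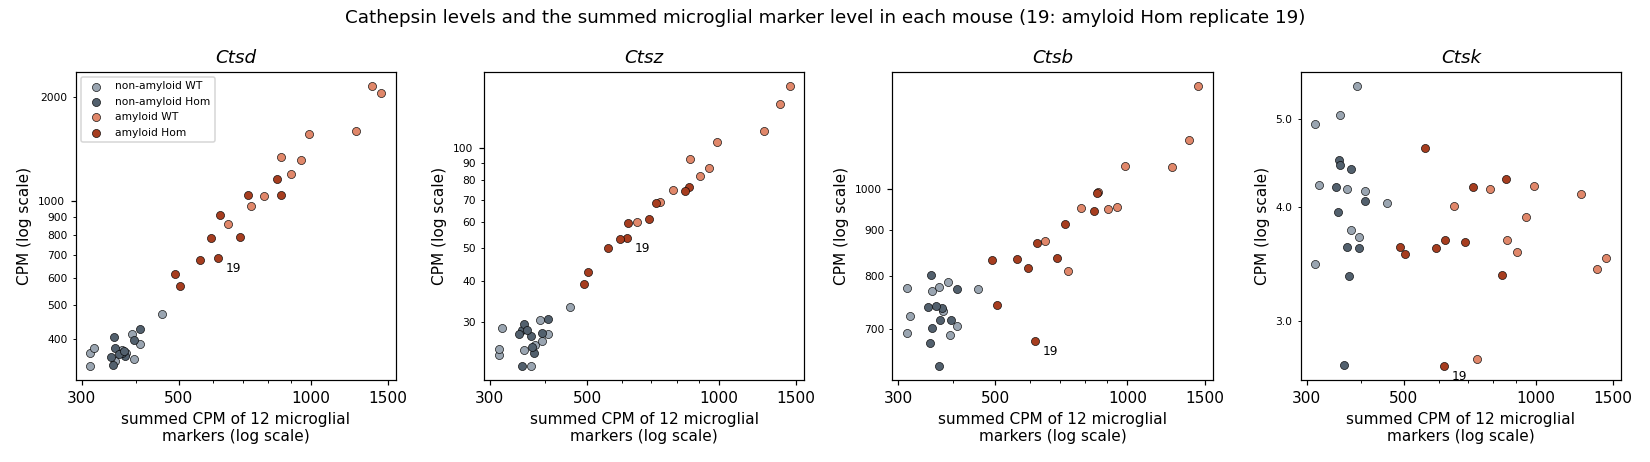
CPM of *Ctsd*, *Ctsz*, *Ctsb* and *Ctsk* against the summed CPM of 12 microglial markers in each of the 40 mice, both on log axes, colored by group. *Ctsd* and *Ctsz* lie along a narrow band in amyloid mice (r from 0.914 to 0.978 within a group), *Ctsb* of replicate 19 lies below the band, and *Ctsk* shows no trend with the markers.

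Markers of other cells were examined next. Of 6 perivascular macrophage markers 0 were called in amyloid Hom against WT mice by edgeR and 2, *F13a1* (-0.40) and *Lyve1* (-0.51), had an unadjusted p under 0.05. Their sum was 11.5 to 22.5 CPM in amyloid WT and 11.1 to 20.1 CPM in amyloid Hom mice, and *Mrc1* was the most abundant per kb over all 40 libraries. Of 7 astrocyte markers 0 were called, and *Gfap*, the intermediate filament of reactive astrocytes, was at -0.95 (adjusted p = 0.083, and 0.00904 with sex as a covariate), a larger value than that of any of the 10 members. The water channel *Aqp4* was at -0.32 (unadjusted p = 0.0149). Markers of neurons (8), oligodendrocytes (6), endothelial cells (6), erythroid cells (5), fibroblasts and meninges (6) and neutrophils and monocytes (4 of 6 tested) gave 0 calls by edgeR in this comparison, with 1 gene, *Col1a1* of the meningeal list, at an unadjusted p under 0.05. Choroid plexus markers varied most between mice, at a summed 7.12 to 385.5 CPM in amyloid WT and 12.1 to 671 CPM in amyloid Hom mice, with replicate 19 at 551 CPM, *Ttr* the most abundant per kb and *Clic6* (0.70, unadjusted p = 0.0311) the marker at an unadjusted p under 0.05. Without replicate 19 *Clic6* was at 0.59 (unadjusted p = 0.064). With amyloid, edgeR called *Gfap* (3.16 in WT and 2.33 in Hom mice) and *Aqp4* (0.64 and 0.50) as higher in both genotypes. It also called 1 endothelial marker in WT mice, 1 oligodendrocyte marker in Hom mice and 1 meningeal marker in each genotype as higher. In Hom mice 1 neuronal marker and *Cux2* (-0.35, adjusted p = 0.00585) were lower, and the other lists had 0 calls. The part of these cells in the values of the cathepsins was not tested.

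The inhibitors of cysteine cathepsins were then examined. Of 17 listed cystatins, stefins and related inhibitors 10 were tested; *Csta1* and *Stfa3* were at 0 in all libraries. With amyloid 5 of these 10 rose in WT mice and 4 in Hom mice by edgeR. *Cst3*, cystatin C, the main secreted inhibitor and the most abundant of the list per kb, was at 596, 683 and 936 CPM in amyloid WT, 522, 639 and 731 CPM in amyloid Hom, 446, 503 and 646 CPM in non-amyloid WT and 423, 491 and 615 CPM in non-amyloid Hom mice. *Cst7*, cystatin F, an inhibitor of cathepsin C and others in immune cells, was at 28.6, 66.5 and 131 CPM in amyloid WT and 12.5, 26.02 and 47.7 CPM in amyloid Hom mice, and at 0.0321 to 0.309 CPM in the non-amyloid mice. Its amyloid groups overlapped, and no non-amyloid mouse came near them. In amyloid Hom against WT mice 0 of 10 were called and 4 were lower at an unadjusted p under 0.05, *Cst7* (-1.305, adjusted p = 0.0554, edgeR), *Ctla2b* (-0.71), which resembles a cathepsin propeptide, *Cst3* (-0.21) and the cytosolic stefin *Cstb* (-0.18). With sex as a covariate *Cst7* and *Ctla2b* were called. Without replicate 19 *Cstb* was at -0.17 with an unadjusted p of 0.0534.

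Other cathepsin genes of the mouse were mostly silent. Of 13 listed, 7 were at 0 in all libraries and 3 were tested. *Ctso*, a cysteine cathepsin, was the most abundant of them per kb, at 36.8, 44.6 and 61.4 CPM in amyloid WT and 37.5, 47.6 and 53.5 CPM in amyloid Hom mice. *Ctse*, an aspartic cathepsin of immune cells, was at 0.720, 9.94 and 25.6 CPM in amyloid WT and 0.140, 1.73 and 10.1 CPM in amyloid Hom mice, against at most 0.348 CPM in non-amyloid mice. It rose with amyloid in both genotypes (log2 fold change 6.01, adjusted p = 2.45e-07 in WT and 4.835, adjusted p = 9.37e-05 in Hom mice, edgeR). *Ctsw*, of cytotoxic lymphocytes, was at most at 0.639 CPM in any mouse. *Ctse* and *Ctsw* were at -1.60 and -0.74 in amyloid Hom against WT mice, with unadjusted p of 0.0297 and 0.025 and neither called, and *Ctso* was at -0.046.

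Among 8 other lysosomal proteases 3 rose with amyloid in WT mice and 1 in Hom mice, and in amyloid Hom against WT mice 0 were called and 4 were lower at an unadjusted p under 0.05 by edgeR. These were the carboxypeptidase *Scpep1* (-0.23), *Lgmn* (-0.26), the asparaginyl endopeptidase that processes cathepsin precursors, *Dpp7* (-0.28) and *Tpp1* (-0.13), both of which release short peptides from N-terminal ends. Without replicate 19 *Tpp1* was at -0.084 with an unadjusted p of 0.0825. Among 11 genes of sorting and partner proteins, with the mannose phosphate receptors and *Psap*, 1 rose with amyloid in WT mice and 0 in Hom mice. That gene was *Glb1*, the β-galactosidase that cathepsin A protects (0.35 in WT mice, adjusted p = 0.0077, edgeR), and it was at -0.26 (unadjusted p = 0.00423) in amyloid Hom against WT mice. *Gnptab*, *Neu1* and *Psap* were at -0.13, -0.14 and -0.11 there without passing. Of 6 transcription factors 5 were tested. *Spi1*, which encodes PU.1, and *Irf8*, both factors of myeloid cells, rose with amyloid in WT (1.37 and 1.77) and in Hom mice (0.52 and 1.001), and were at -0.76 and -0.75 (both adjusted p = 0.0554, edgeR) in amyloid Hom against WT mice. Both were called with sex as a covariate (adjusted p = 0.0149 and 0.00904), also without replicate 19 (0.0264 and 0.017). The lysosomal regulators *Tfeb* and *Tfe3* were at -0.27 (unadjusted p = 0.11) and -0.099 there.

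How the members varied among mice was described after the mean of each of the 4 groups was subtracted, over 40 libraries and with no test. Among the 8 members other than *Ctsf* and *Ctsk*, a split made after their values were seen, Pearson's r of the 28 pairs was 0.288 to 0.943 with a median of 0.776, highest for *Ctsd* and *Ctsz*. The 17 pairs with *Ctsf* or *Ctsk* had r from -0.393 to 0.566 with a median of 0.109. Among all genes tested, those nearest to *Ctsd* were *Ctsz* (0.943), *Tyrobp* (0.930) and the lysosomal cholesterol carrier *Npc2* (0.907), and those nearest to *Ctsz* were *Ctsd*, *Tyrobp* (0.936) and the phagocyte glycoprotein *Cd68* (0.921). *Ctss* was nearest to *Mpeg1* (0.915), *Ly86* (0.902) and *Ctsh* (0.890), and *Ctsh* was close to *Ly86* (0.920) and *Cx3cr1* (0.905). *Ctsc* was close to *Pros1* (0.871) and *Lair1* (0.860), *Ctsl* was nearest to *I830012O16Rik* (0.887), *Nckap1l* (0.856) and *Emr1* (0.856), *Ctsa* to *Lgmn* (0.909), *Ctsz* (0.906) and *Laptm5* (0.868), and *Ctsb* to *Fcer1g* (0.874), *Ctsd* (0.810) and *Cd63* (0.805). *Ctsf* was nearest to *Nelfcd* (0.877), *Sirt3* (0.856) and *Fibp* (0.852), and *Ctsk* to *Gstz1* (0.727), *Pgk1* (0.727) and *Fh1* (0.722). All these values include replicate 19. Each group mixes females and males and the means of the sexes were not subtracted, so a shared sex difference would also give such values. Differences between libraries in depth or RNA quality could also enter them, which was not tested.

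The promoters of the members were read for motifs of factors named above. RefSeq promoter sequences on GRCm38.p6, from 250 bases before to 50 after a transcript's start, were matched for 8 of 10 members with 9 promoters, and *Ctsb* and *Ctsh* are named only. The letters CACGTG, a core of sites for the lysosomal factor TFEB and its relatives, were searched on both strands with the longer TCACGTGA that contains them, as were the letters GAGGAAGT, a core of PU.1 sites. CACGTG was found in 4 of the 8 members (*Ctsa*, *Ctsd*, *Ctsf* and *Ctsl*) and in 7.15% of 32851 promoters of the same length, TCACGTGA in *Ctsa* and *Ctsd* and in 0.974%, and GAGGAAGT in *Ctsc* and *Ctss* and in 3.2%. None of the letters was in the window of *Ctsz* or *Ctsk*. A match is a description, not a site or a cause. Below, 3 of these windows are shown, 2 with the longer motif and 1 with the PU.1 letters, with the motif in capitals and each read 5′ to 3′ on the strand of its gene. The *Ctsa* window is at chr2:164833743-164833772 on the plus strand, within the gene and a UTR by annotation, the *Ctsc* window at chr7:88277923-88277952 on the plus strand, outside the gene, with GAGGAAGT on the opposite strand, and the *Ctsd* window at chr7:142387908-142387937 on the minus strand, within the gene and a UTR.
Ctsa: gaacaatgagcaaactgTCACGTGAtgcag
Ctsc: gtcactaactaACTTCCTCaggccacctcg
Ctsd: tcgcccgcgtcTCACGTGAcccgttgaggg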

How the data were processed

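Polyadenylated RNA of the cortex was sequenced in 40 libraries, and the deposited values are raw counts per gene (unit: count), which the authors made with featureCounts and did not normalize. The submitters' processing notes name STAR 2.5.2b and featureCounts 1.5.1 on mm10, while the study's methods name TopHat, so the aligner is uncertain. The study left out a Hom female of the amyloid cohort for its share of gene counts and its strand check, without naming it. Replicate 19 may be that library, which was not established. All 40 libraries were kept here, so the main counts may include it. Of 43346 genes 9666 had no count.

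Analyses used R 4.3.3, edgeR 4.0.16, limma 3.58.1, DESeq2 1.42.0, and Python 3.11.15 with matplotlib 3.10.9, SciPy 1.17.1, pandas 2.3.3 and NumPy 2.4.6. A gene was kept if 4 or more of the 40 libraries had 10 or more counts for it, and the 21253 kept genes were normalized by TMM and tested by edgeR's quasi-likelihood test, with no covariate unless stated. A gene was called at a Benjamini-Hochberg adjusted p under 0.05 over all genes tested and an absolute log2 fold change over 0.25. Correlations used two-sided permutation tests with 100000 resamples, and those between genes used log2 CPM with a prior count of 2. The method was tested on simulated data, and no result of that test is reported here. Alternatives to these steps were other tools (limma-voom weighted by sample quality, DESeq2), other scaling (library size, upper quartiles), other filters (filterByExpr, none), a sex covariate, a fit of all libraries, no fold threshold and leaving out libraries. Each library was left out in the comparisons of genotypes within a cohort and of cohorts within a genotype. For the interactions, the comparison of sexes and the relations with microglia, only replicate 19 was left out. Gene positions and lengths came from the count table, and overlaps and UTRs from GENCODE vM21.

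Named genes are the 10 members, *Trem2*, up to 4 genes of each other list with the lowest p in amyloid Hom against WT mice, the 3 nearest genes of each member, and the cortical check genes. Some genes chosen by these rules are not reported. The lists were other cathepsins, cysteine protease inhibitors, other lysosomal proteases, sorting and partner proteins, transcription factors, and markers of microglia, plaque-associated microglia, perivascular macrophages, neutrophils and monocytes, astrocytes, oligodendrocytes, neurons, endothelial cells, fibroblasts and meninges, choroid plexus, erythroid cells and cortex. Members and lists were chosen with earlier results of these data known.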

Additional observations from a re-analysis of the deposited data

Results flagged for a closer look

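The difference between the cohorts in the Hom against WT value passed the edgeR test for 2 members when sex was a covariate (beside 12 of all genes), for 0 without the covariate (beside 0), and for 0 with it when replicate 19 was left out (beside 6). DESeq2 without a covariate called the same 2, beside 18 of all genes. The interaction of genotype and cohort was -0.7516 on the log2 scale for *Ctsd* (SE 0.153, adjusted p = 0.0368, edgeR) and -0.7593 for *Ctsz* (SE 0.157, adjusted p = 0.0382). Both genes were lower in Hom than in WT mice with amyloid and at nearly equal levels without it. Over all alternatives, with replicate 19 the only library left out, the adjusted p of these interactions ranged from 0.0357 to 0.359 for *Ctsd* and from 0.0333 to 0.351 for *Ctsz*. Within the groups, 44 sets of 10 mice (the 10 members and *Trem2* in each of the 4 groups) were examined for a mouse far from the others, and 0 had one by Dixon's criterion, where chance gives about 1 in 20 groups.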

How the results depend on the processing

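The 8 and 7 members that rose with amyloid in WT and Hom mice had the same direction and side of the threshold under every alternative, except that with no fold threshold *Ctsb* (0.21) and *Ctsf* (-0.17) also passed in Hom mice. For amyloid Hom against WT mice, 0 members were called by edgeR and 7 with sex as a covariate, 7 by DESeq2, 2 with filterByExpr, 8 in a fit of all 40 libraries and 6 with the sex covariate and replicate 19 left out, and leaving out a library gave 0 to 7. The count over all genes was 16 and became 251, 294, 66, 612 and 200 in these settings, 25 by limma-voom, 9 with no filter and 6 to 204 with a library left out. For non-amyloid mice it was 7, 11 by DESeq2, and 4 to 8. The interaction of genotype and cohort gave 0 members and 2 with sex as a covariate or by DESeq2 (all genes 0, against 12 and 18, and 6 with the covariate and without replicate 19). For females against males the 1 member became 5 by DESeq2, 3 by limma-voom, 0 with no filter (*Ctss* 0.61, adjusted p = 0.0591) and 6 in the fit of all libraries, and the 51 genes became 251, 113, 26 and 241, and 89 without replicate 19. Values near 0 turned their sign. *Ctsk* in amyloid Hom against WT mice was 0.0083 by DESeq2, 0.0095 by limma-voom, 0.0022 with upper-quartile normalization, 0.045 with the sex covariate and without replicate 19, and -0.040 to 0.046 with a library left out, where *Ctsf* was -0.0095 to 0.038. In non-amyloid mice *Ctsd* was -0.032 to 0.033, *Ctsf* -0.013 to 0.039 and *Ctsz* -0.0073 to 0.061. The *Ctsf* interaction was 0.020, 0.0053, 0.012 and 0.0086 by limma-voom, with upper-quartile normalization, with the sex covariate and without replicate 19, and without replicate 19. *Ctsf* in females against males was -0.00014 with no filter, and its r with the microglial level in Hom mice was -0.393 without the 2 farthest mice. With *Csf1r* alone as the microglial measure the relations of *Ctsc*, *Ctsh* and *Ctsl* in Hom mice (0.563, 0.649 and 0.576) did not pass. With a library left out, 791 member values had the same direction and side of the threshold, 16 came to pass and 23 turned sign, and under the other alternatives 516 had, 47 came to pass, 8 no longer passed and 9 turned sign. The cause was not tested. The relations with microglia without replicate 19 are an alternative chosen after seeing the data. Counts per gene do not separate alleles, cells or protein activity.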
